A study of Mus musculus with 8 samples.

Results

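Chromosome 12 carries the Bcl11b gene itself, and the intervals described here are those of this chromosome that bound Bcl11b in thymocytes, the developing T cells of the thymus, apart from 2 windows. An interval is a stretch of 201 bp in which the study counted reads. Members were the chromosome 12 intervals of the deposited CPM table (CPM, reads counted in an interval relative to the total of the library, as scaled by the authors) whose midpoint lay outside 107000000-108050000, the window of Bcl11b and its distal regulatory region, and outside 113287389-116063231, the window of the immunoglobulin heavy chain locus Igh (coordinates of mm10). They numbered 2402 of the 63098 tested intervals of the genome, or 3.81%. Another 92 tested intervals lay in the Bcl11b window and 66 in the Igh window, and 1302 further chromosome 12 intervals outside the windows were counted but absent from the CPM table. Members were chosen by position, but the chromosome and both windows were selected on log2 fold changes and calls between the genotypes, so the differences along it are described and not tested as a property of the chromosome.

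Bcl11b binding came from ChIP-seq (immunoprecipitation of cross-linked chromatin, then sequencing) of thymus thymocytes of 2 genotypes, Bcl11b+/+ (wild type) and Bcl11b+/N440K, with 3 ChIP libraries each. N440K thymocytes kept 1 wild type allele beside the allele with the amino acid exchange. The sources used here give no treatment, age or strain, nor whether replicates came from separate animals. No error below is therefore known to include the spread between animals, and the spread between libraries may be technical. An SD is over the libraries, and an SE comes from the fit described under the processing of the data. Counts over the tested intervals totalled 1609762 to 2400250 per library. Input DNA of the wild type (2 libraries) was not analysed here; background was therefore not subtracted and DNA copy number stays in the values. Less binding per cell and fewer cells with the bound site cannot be told apart in these libraries.

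Bcl11b is a zinc finger protein required for commitment of thymocytes to the T cell lineage and for its upkeep. It binds at promoters and at distant regulatory elements, often beside Ets and Runx family factors, and can recruit the NuRD and other corepressor complexes as well as act at active genes. Chromosome 12 outside the windows holds genes of lymphocyte regulators such as Id2, an inhibitor of E proteins, Zfp36l1, an RNA-binding protein that destabilises transcripts, and the AP-1 subunit genes Fos and Batf. It also holds Adam17, a membrane protease that sheds cytokines and receptors and can cleave Notch, and the imprinted Dlk1-Dio3 domain.

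The following promoters show the kind of sequence under members at gene starts. They were chosen after the values were seen: Adam17 because its start-site interval gained signal, Zfp36l1 because it held a member among the strongest in wild type, and Psmc1, a proteasome subunit gene, because losses lay just before a start-site interval that was not called. Each is the 250 bases before the RefSeq start on GRCm38.p6, whose coordinates are those of mm10, in the direction of the gene. Capitals mark matches to AGGAAG or CTTCCT, a form of the core letters of Ets sites. Other forms of that core were not searched. The other words searched, given after the sequences, had no match in them.
Adam17 (chr12:21373633-21373882, minus strand): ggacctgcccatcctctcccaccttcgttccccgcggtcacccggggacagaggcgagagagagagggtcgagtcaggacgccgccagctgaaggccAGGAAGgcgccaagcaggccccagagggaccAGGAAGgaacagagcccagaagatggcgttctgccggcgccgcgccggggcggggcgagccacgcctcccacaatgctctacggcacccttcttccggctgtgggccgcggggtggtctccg
Zfp36l1 (chr12:80113014-80113263, minus strand): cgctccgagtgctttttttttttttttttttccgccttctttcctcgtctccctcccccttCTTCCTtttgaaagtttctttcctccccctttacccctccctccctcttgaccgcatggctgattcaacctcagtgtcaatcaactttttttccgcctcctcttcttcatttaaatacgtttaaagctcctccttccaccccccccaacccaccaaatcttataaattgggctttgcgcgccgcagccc
Psmc1 (chr12:100109952-100110201, plus strand): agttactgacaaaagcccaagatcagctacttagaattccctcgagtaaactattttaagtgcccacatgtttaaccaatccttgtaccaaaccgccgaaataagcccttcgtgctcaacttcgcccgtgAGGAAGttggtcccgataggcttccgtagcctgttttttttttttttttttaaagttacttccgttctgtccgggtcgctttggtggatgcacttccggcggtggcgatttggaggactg

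The Adam17 interval ran from 92 bases before the start into the gene. Its AGGAAG matches, at 153 and 122 bases before the start, fell outside the interval on its upstream side. Other forms of the Ets core inside the interval were not searched. The Zfp36l1 interval ran from 373 to 173 bases before the start and covered that gene's match, at 189 bases. The Psmc1 interval ran from 159 bases before to 41 after the start and covered the match at 120 bases. The letters AGGAAG, read on both strands, were present in 26.7% of the 389 chromosome 12 promoters that overlapped a member (of 1275 promoters on the chromosome), in 27.5% of the 9371 promoters of other autosomes that overlapped a tested interval and in 29.6% of all 31365 autosomal promoters. TGTGGT, core letters of Runx sites, were present in 9.51%, 10.3% and 14.0% of these same sets. TGACCA, the letters known for the related protein Bcl11a, were present in 6.94%, 9.45% and 11.5%. The reverse complement of the last word, TGGTCA, shares letters with TGTGGT, so matches to these can overlap. A match is a description of letters, not a binding site.

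In wild type thymocytes the Bcl11b signal of chromosome 12 lay within the range of the other autosomes. The median member had 11.9 CPM, and the other 18 autosomes lay between 11.0 and 12.8 CPM. The medians of the wild type libraries were 11.8, 11.5 and 12 CPM, and those of the N440K libraries were 11.6, 11.6 and 12 CPM, so the genotypes overlapped. Members took up 3.71% ± 0.0187 of wild type and 3.69% ± 0.0589 of N440K counts (SD, n = 3). They were sparse, at 21.4 per Mb, which placed the chromosome in position 15 of 19 in a range of 19.1 to 44.5 per Mb on the other autosomes. Within 1 kb of a RefSeq start site lay 776 members, or 32.3%, against 33.2% on the 17 other autosomes with start sites in the promoter table. Those members had a median of 16.1 CPM in wild type, and the members farther away had 10.2 CPM. Inside a gene body (protein-coding or listed genes, exons and introns not told apart) lay 59.3% of members, against 61.9% elsewhere.

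The strongest members of the wild type did not stand among the calls. The member at 52603567-52603767, 31.7 kb from Arhgap5 had 105, 87.3 and 77.7 CPM in wild type libraries and 83.6, 90.9 and 71.8 CPM in N440K libraries. The member at 80113186-80113386, 0.3 kb from Zfp36l1, had 84.9, 79.0 and 97.9 CPM in wild type libraries and 97.5, 86.6 and 94.7 CPM in N440K libraries. At both sites the libraries of the genotypes overlapped, with log2 fold changes of -0.12 ± 0.12 near Arhgap5 and 0.09 ± 0.11 near Zfp36l1 (N440K over wild type, SE). The other 3 of the strongest 5 were a second interval near Arhgap5 (0.27 ± 0.12), one 20.5 kb from the amino acid transporter gene Slc38a6 (0.25 ± 0.12) and one 0.5 kb from Rps29, a ribosomal protein gene (-0.19 ± 0.13), and none of the 5 was called.

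Between the genotypes, 21 members gained and 33 lost signal, which made 54 called members. A call here is an adjusted p under 0.05 in edgeR's quasi-likelihood test, with Benjamini-Hochberg adjustment over all 63098 tested intervals. The called share was 2.25% of members, against 1.14% of all tested intervals and 1.07% of those on the other autosomes. Gains made up 0.874% of members (0.46% of all tested intervals and 0.45% of those on the other autosomes) and losses 1.37% (0.681% and 0.616%). Across the other 18 autosomes the called share ran from 0.670% to 1.49%, with a median of 1.00% and the highest value on chromosome 14, so chromosome 12 outside the windows held the highest share of the 19. The share of members whose 3 libraries did not overlap between genotypes was 19%, beside 17.3% of all tested intervals, 17.2% on the other autosomes together and 15.3% to 18.6% on single ones. At an unadjusted p under 0.05 the shares were 13.5% of members, 12.7% of all tested intervals and 12.6% on the other autosomes. Among the calls, all 21 gains and 31 of the 33 losses had libraries that did not overlap between genotypes. The calls named below for their fold were required to have no overlap.

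**Figure D1:**
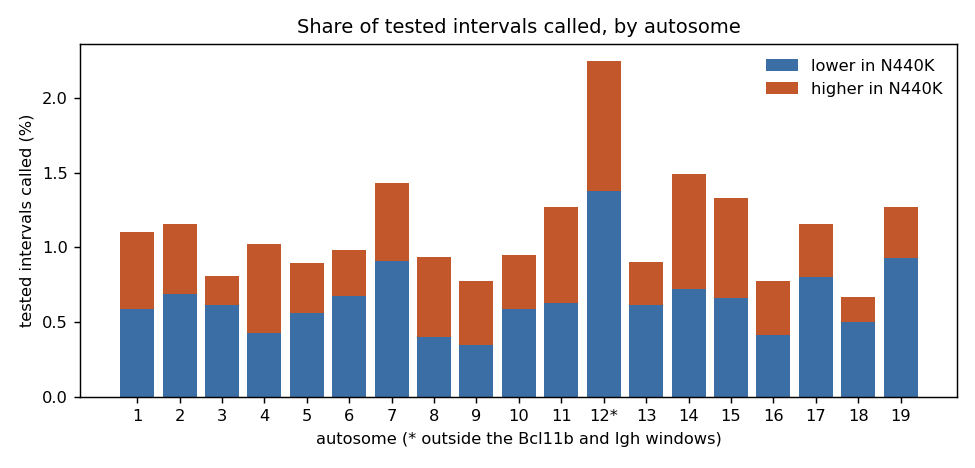
Percent of tested intervals called in edgeR, by autosome (x axis), stacked by direction in N440K; the asterisk marks chromosome 12 without the Bcl11b and Igh windows. Chromosome 12 stands at 2.25%, and the other 18 autosomes lie between 0.670% and 1.49%.

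The median over members lay near 0. The median log2 fold change was -0.00081, and the other autosomes lay between -0.014 and 0.022. Against the wild type mean, the median member stood at -0.037, 0.014 and -0.002 (log2) in N440K libraries 1, 2 and 3. The spread of the log2 fold changes over members (median absolute deviation scaled to an SD) was 0.34, within the 0.32 to 0.35 of the other autosomes. The called share exceeded that of the other autosomes in every quartile of mean CPM, at 1.82% against 1.01% in the weakest quartile, 1.60% against 1.12%, 3.04% against 1.09% and 2.57% against 1.04% in the strongest.

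The count of calls rested on the full set of libraries. It was 24 without wild type 2, 28 without wild type 3, 15 without N440K 1 and 27 without N440K 3. The other fits are not listed here, and the one with the most calls, given in the last section, is among them. In each of the 6 fits with a library left out the share on chromosome 12 was above that of the other autosomes, by 1.34 to 2.61 times. DESeq2 called 6 members (0.25%, beside 0.0951% of all tested intervals and 0.0809% on the other autosomes) and limma voom 23 (0.958%, beside 0.504% and 0.472%), and all of these were among the 54.

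**Figure D2:**
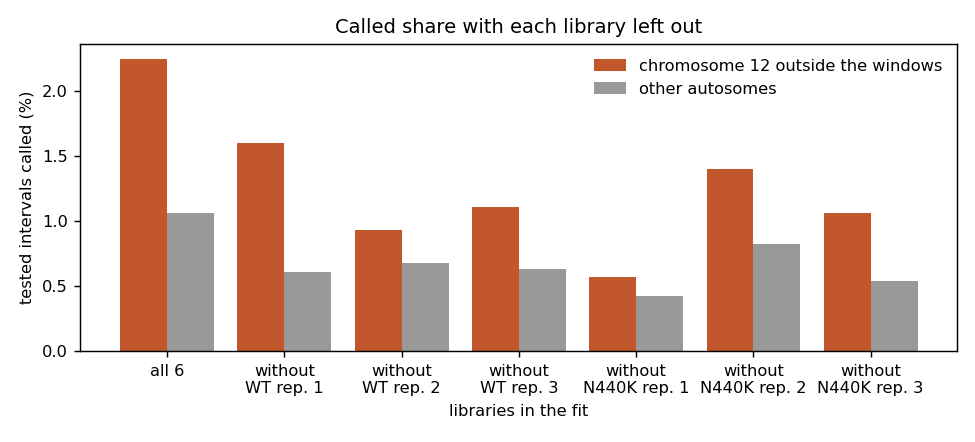
Percent of tested intervals called with all 6 libraries and with each library left out (x axis), for chromosome 12 outside the windows and for the other autosomes together. The chromosome 12 bar falls from 2.25% to 0.570% without N440K 1 and is the taller bar of each pair.

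The called share differed between bins of the chromosome, and whether it differed more than an even spread of calls would give was not tested. In bins of 5 Mb with at least 20 tested intervals, 10 of 22 chromosome 12 bins (45.5%) had 2% or more of their intervals called, against 77 of 417 bins (18.5%) on the other autosomes. At 4% or more stood 5 bins (22.7%) against 23 (5.52%), and 5 bins (22.7%) against 151 (36.2%) held no call. A called share of 2.25% against 1.07% puts more bins past such cuts, whatever the spread along the chromosome. The last bin, from 115 Mb to the end, had the highest share, with 5 of 50 called (10%), and 3 of the 417 other bins reached as much. The bin from 15 to 20 Mb followed with 7 of 96 (7.29%), then 95 to 100 Mb with 6 of 94 (6.38%), 20 to 25 Mb with 3 of 51 (5.88%) and 25 to 30 Mb with 4 of 100 (4.00%). The densest bin, from 110 to 115 Mb with 71.5 members per Mb, had 1 call in 235 (0.426%). From 80 to 85 Mb all 6 calls were losses, among 221 tested. The leading bin depended on the setting. It was 20 to 25 Mb without wild type 1 (6 of 57, 10.5%), without wild type 3 (2 of 55, 3.64%), without N440K 2 (5 of 59, 8.47%), with DESeq2 (1 of 51, 1.96%) and at an adjusted p of 0.01 (2 of 51, 3.92%), and 90 to 95 Mb without N440K 1 (1 of 42, 2.38%).

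The bin from 20 to 25 Mb, which holds Adam17, had a positive median and the widest spread. Its median log2 fold change was 0.21, and its spread of 0.504 was reached by 4 of the 417 other bins, whose median was 0.328 and 95th percentile 0.434. The same spread for 1 library against the others of its genotype was 0.413 in that bin. Beside the gains in Adam17 given below, the bin held 1 call, a loss 1.4 kb from Rrm2, a ribonucleotide reductase subunit gene, with 13.6, 12.8 and 18.9 CPM in wild type libraries and 8.86, 7.32 and 5.73 CPM in N440K libraries, which held in 0 of 6 fits with a library left out. The 2 uncalled members with the smallest p in the bin were positive, 1 in the epithelial transcription factor gene Grhl1 (1.69 ± 0.47) and 1 in Ywhaq, a 14-3-3 protein gene 36.2 kb from the Adam17 start-site interval (1.04 ± 0.29; chosen after its values were seen). The negative ones with the smallest p were 2 at the acyltransferase gene Mboat2 (-0.64 ± 0.20 and -1.13 ± 0.35).

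In windows of 1 Mb with at least 20 tested intervals, 8 of 50 (16.0%) had a median log2 fold change of 0.2 or more in either direction, 3 higher and 5 lower, against 68 of 1019 (6.67%) on the other autosomes. From 21 to 22 Mb, 22 of 29 members were positive with a median of 0.29, at 0.23, 0.27 and 0.25 in each N440K library relative to the mean of the wild type, and at 0.12, 0.05 and -0.17 in each wild type library against the other wild type libraries. All 3 N440K libraries stood above the 3 wild type libraries in that window, which was picked for its median, though the baselines differ. Of the 8 windows, those at 26 to 27 Mb and 99 to 100 Mb had overlapping libraries on these baselines. Wild type 1 stood at 0.16 and N440K 2 at 0.08 in the former, and wild type 2 at -0.19 and N440K 2 at -0.16 in the latter. The remaining windows had no overlap, but all 8 were picked for their medians, which favours libraries that stand apart. How many of all windows had no overlap was not counted. The other positive windows were 71 to 72 Mb, with the largest median, 0.31, and no call, and 26 to 27 Mb with 0.26. The negative windows were 81 to 82 Mb with -0.27, the 1 Mb next below the Bcl11b window and that from 116 to 117 Mb with -0.26 each, 51 to 52 Mb with -0.24 (21 of 25 negative) and 99 to 100 Mb with -0.21 (43 of 63 negative).

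**Figure D3:**
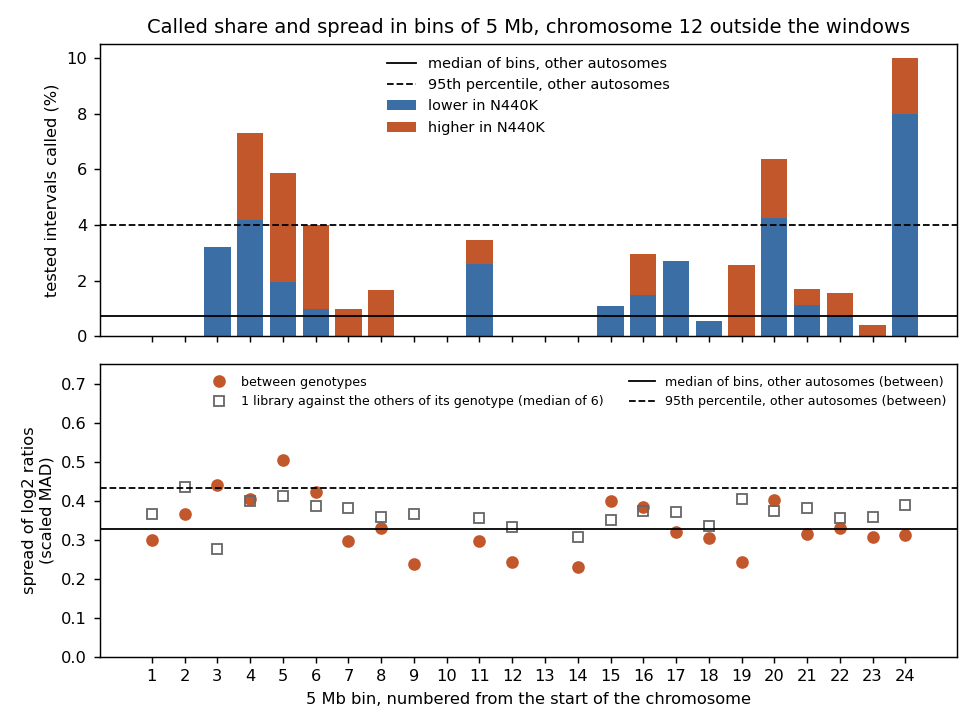
Upper plot: percent of tested intervals called in each 5 Mb bin of chromosome 12, by direction in N440K. Lower plot: the spread of log2 ratios in the same bins between genotypes and for single libraries within a genotype; lines give the median and 95th percentile of the bins on other autosomes. Bin 24 (from 115 Mb) has the highest called share, 10%, and bin 5 (20 to 25 Mb) the widest spread between genotypes, 0.504.

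Gains lay in and near Adam17. The interval over its start site, at 21373524-21373724, had 52.0, 49 and 37.3 CPM in the wild type libraries and 80.3, 69.6 and 78.1 CPM in the N440K libraries. Every N440K library was above every wild type library, and the means were 46.1 ± 7.76 and 76.0 ± 5.67 CPM (SD, n = 3), a 1.66-fold gain (log2 fold change 0.74 ± 0.13, SE). A second interval inside the gene, at 21370460-21370660, had 9.29, 5.35 and 5.15 CPM in wild type libraries and 24.9, 11.6 and 17.2 CPM in N440K libraries, a 2.83-fold gain. Within 150 kb of the start-site interval lay 17 members, of which 12 were positive, with a median of 0.28, and these 2 were the calls. Other calls of gain below 30 Mb included intervals in Hpcal1, a neuronal calcium sensor gene, and in Trappc12, which encodes part of a vesicle tethering complex. The Hpcal1 interval had 35.9, 31.7 and 46.8 CPM in wild type libraries and 67.6, 48.2 and 59.3 CPM in N440K libraries, without overlap. In Trappc12 the interval at 28735560-28735760 had 14.3, 7.41 and 6.87 CPM in wild type libraries and 26.6, 23.8 and 26.0 CPM in N440K libraries, and an interval close by, named after its values were seen, had 13.0, 10.7 and 8.16 against 22.7, 14.0 and 26.0 CPM. In the 6 fits that left out a library, the call held in 6 for the start site, 5 for the second Adam17 interval, 2 for Hpcal1, 6 for the first Trappc12 interval and 2 for the other.

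**Figure D4:**
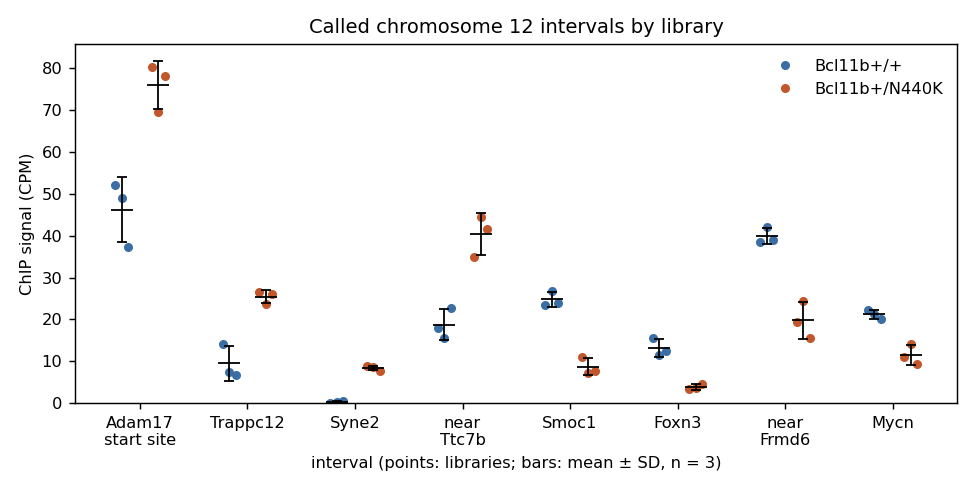
ChIP signal in CPM (y axis) of 8 called intervals (x axis) in each library, with the mean and SD of 3 libraries per genotype; the 8 were picked among called intervals to show both directions. The genotypes do not overlap at any of them; the start-site interval of Adam17 has means of 46.1 and 76.0 CPM, and the Smoc1 interval 24.8 and 8.73 CPM.

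Further gains lay beyond 50 Mb. The interval 23.7 kb from Ttc7b, which encodes a scaffold of a phosphatidylinositol kinase complex, had 18.0, 15.6 and 22.7 CPM in wild type libraries and 34.9, 44.5 and 41.6 CPM in N440K libraries (mean 18.8 ± 3.62 against 40.4 ± 4.95 CPM, a 2.14-fold gain). An interval in Wdr25 had 13.0, 7.0 and 11.2 CPM in wild type libraries and 18.8, 23.2 and 24.5 CPM in N440K libraries. The start of Dync1h1, the dynein heavy chain gene, had 20.4, 25.1 and 21.0 CPM in wild type libraries and 32.7, 37.8 and 35.9 CPM in N440K libraries. These were again gains with no overlap between genotypes, which the rule that named them required. Plekhg3 had a 1.84-fold gain, an interval 24.8 kb from Rhoj a 1.56-fold gain and one in Esyt2, a membrane contact site gene, a 1.99-fold gain. The lowest fold among the 21 gains, 1.38, was at an interval 0.8 kb from Eapp, named after its values were seen, with 66.3, 60.5 and 67.4 CPM in wild type libraries and 98.0, 75.7 and 93.2 CPM in N440K libraries. With a library left out, the call held in 6 of 6 fits near Ttc7b, 4 for Wdr25, 0 for Dync1h1, 3 for Plekhg3, 2 for Rhoj, 4 for Esyt2 and 2 for Eapp.

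A gain in Syne2 started from almost no signal, and another had wild type libraries that differed widely. In Syne2, a gene of the nuclear envelope, the interval at 76048764-76048964 had 0, 0.412 and 0.429 CPM in wild type libraries and 8.86, 8.54 and 7.81 CPM in N440K libraries. These values stood on 2 wild type and 45 N440K reads, a ratio of 26.7 after library size (exact 95% interval 6.98 to 227, for counting error only). The other 9 members within 150 kb of it were not called, and the median of the 10 was -0.05. An interval 161.4 kb from Rnf144a, a ubiquitin ligase gene, had 8.67, 1.65 and 0 CPM in wild type libraries and 17.7, 12.2 and 12 CPM in N440K libraries. Both intervals were named after their values were seen.

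Losses formed runs of neighbouring intervals at Smoc1 and Foxn3. In and before Smoc1, which encodes a secreted calcium-binding matrix protein, 5 of the 13 members within 150 kb were called, all lower, 10 of the 13 were negative and the median log2 fold change was -0.96. Of these calls 4 were assigned to Smoc1 and the other to Slc10a1, a liver bile acid transporter gene that was the nearest, 25.3 kb away. The interval with the largest change over its error, at 81063675-81063875 inside the gene, had 23.5, 26.8 and 24.0 CPM in wild type libraries and 11.1, 7.32 and 7.81 CPM in N440K libraries, a 2.83-fold loss (log2 fold change -1.50 ± 0.24). The adjoining interval had 26.6, 21.4 and 20.2 CPM against 11.6, 6.10 and 10.9 CPM. The run went on to lower coordinates, where the interval near Slc10a1, at 80993865-80994065, had 26.6, 33.8 and 28.3 CPM in wild type libraries and 15.0, 20.1 and 11.5 CPM in N440K libraries. No library of a genotype overlapped with the other at these 3 sites, and the members of the run beside the first were named after their values were seen. The calls of these 3 held in 6, 6 and 3 of the 6 fits that left out a library.

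Foxn3 encodes a forkhead family repressor. Of its 46 members 36 were negative, with a median of -0.32, and 4 were called, all losses. The interval at 99331768-99331968 had 15.5, 11.5 and 12.4 CPM in wild type libraries and 3.32, 3.66 and 4.68 CPM in N440K libraries, a 3.28-fold loss without overlap (means 13.2 ± 2.07 and 3.89 ± 0.709 CPM). The others, named after their values were seen, lost 2.68-fold, 1.84-fold and 2.92-fold. Within 150 kb of that interval 24 of 29 members were negative. Its call held in all 6 fits that left out a library, and the other calls in the gene held in 2, 0 and 1 of them.

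**Figure D5:**
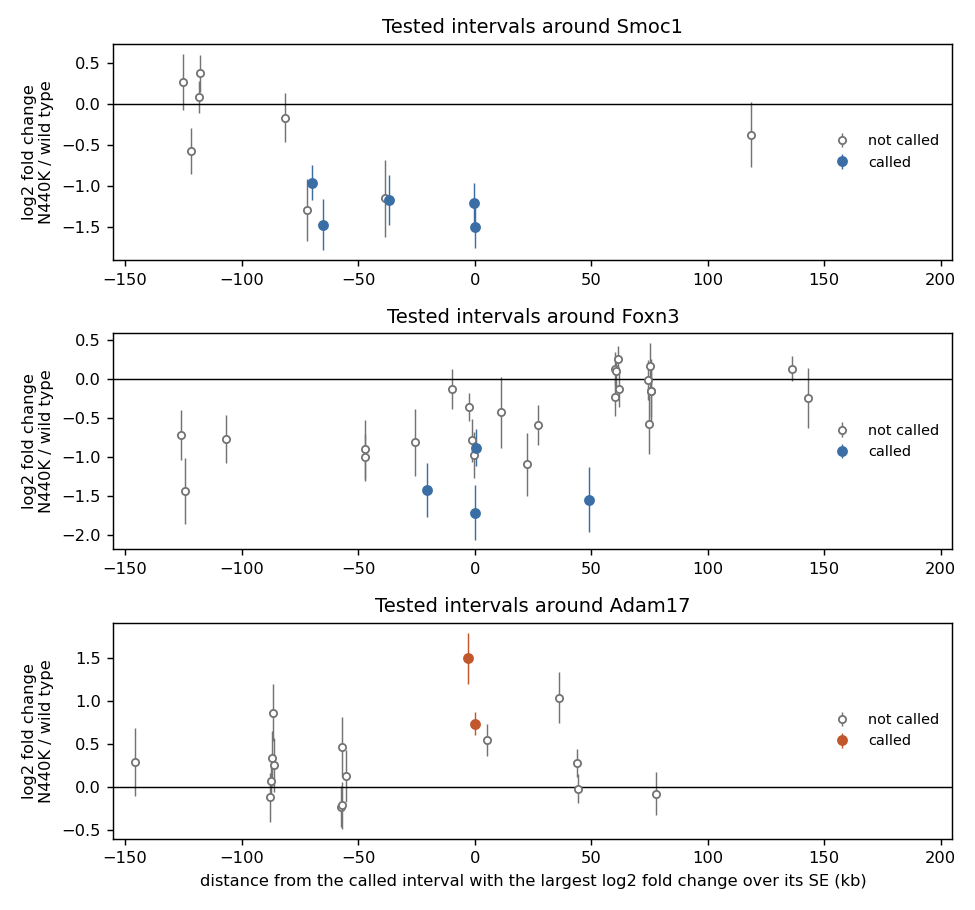
Log2 fold change (N440K over wild type, with SE) of every tested member within 150 kb of the called interval with the largest change over its error in Smoc1, Foxn3 and Adam17, against distance in kb; filled points were called. Around Smoc1 10 of 13 members and around Foxn3 24 of 29 are negative, and around Adam17 12 of 17 are positive.

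Called losses lay away from the start sites in the promoter table, which does not list every gene. No call of loss among the 33 lay within 1 kb of a listed start site, against 44 of 356 (12.4%) on the other autosomes. Of the 21 gains 3 did (14.3%, against 20.1%). This difference was not tested. The count misses the called loss at 81026973-81027173, inside Smoc1 and close to that gene's end of lower coordinates, 81026808. The nearest listed start site to it was that of Slc10a1, 58.4 kb away. Inside a gene body lay 13 of the 33 losses (39.4%, against 55.1%). The median of the losses went from 20.3 CPM in wild type to 9.55 CPM in N440K thymocytes. That of the gains went from 10.4 to 22.2 CPM. Choosing calls by direction favours a higher wild type level in losses than in gains. On the 17 other autosomes with start sites those levels were 14.9 and 9.42 CPM. The median fold was 2.08 for losses (2.59 on the other autosomes) and 2.19 for gains (2.13 on the other autosomes).

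The loss with the most signal behind it of those that held in every fit with a library left out lay far from any protein-coding gene. At 70656852-70657052, 168.5 kb from the nearest, Frmd6, signal was 38.4, 42.0 and 39.1 CPM in wild type libraries, compared with 19.4, 24.4 and 15.6 CPM in N440K libraries, a 2.03-fold loss. In Mycn, a Myc family proto-oncogene, the interval at 12939014-12939214 had 22.3, 21.4 and 20.2 CPM in wild type libraries and 11.1, 14.0 and 9.37 CPM in N440K libraries, and all 5 members of the gene were negative, with a median of -0.60. At 13.5 kb from Baz1a, a chromatin remodelling subunit gene, signal was 23.5, 23.5 and 27.9 CPM in wild type libraries and 13.8, 15.3 and 10.9 CPM in N440K libraries. At 11.8 kb from Sipa1l1, which encodes a regulator of Rap GTPases, it was 11.8, 16.5 and 12.9 CPM against 3.88, 4.27 and 7.29 CPM. The genotypes did not overlap at these 4 sites. With a library left out, the call held in 6 of 6 fits at the first, 1 for Mycn and 3 each for Baz1a and Sipa1l1. Losses of 2.05-fold in Ttll5, a tubulin modifying enzyme gene, and 1.98-fold in Churc1, a zinc finger gene, held in 1 of 6 fits each.

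The bin from 15 to 20 Mb held a run of losses far from protein-coding genes. At 16133350-16133550, 316.5 kb from Trib2, signal was 12.4, 16.5 and 27.9 CPM in wild type libraries and 10.5, 10.4 and 8.85 CPM in N440K libraries, a 1.96-fold loss in which the genotypes stood apart only narrowly. The next 2 calls, both nearest to Lpin1 and named after their values were seen, had 8.67, 9.06 and 11.2 CPM against 2.77, 3.66 and 4.16 CPM and 13.6, 15.6 and 10.7 CPM against 3.88, 6.10 and 7.29 CPM. These 3 calls held in 2, 0 and 1 of the 6 fits with a library left out. The rest of the bin's 7 calls were gains in Hpcal1, 1.9 kb from Nol10 and 257 kb from Trib2, and the loss near Odc1.

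Near Psmc1 the losses lay beside a start that was not called. The interval 2.9 kb before the gene had 16.1, 14.4 and 31.3 CPM in wild type libraries and 7.20, 10.4 and 11.5 CPM in N440K libraries. The interval 1.4 kb before it, named after its values were seen, had 17.3, 11.1 and 15.5 CPM against 2.21, 9.15 and 6.25 CPM. Over the start itself the mean was 57.3 CPM in wild type libraries and 60.0 CPM in N440K libraries (log2 fold change 0.09 ± 0.13). Near Heatr5a, 16 of 20 members within 150 kb of the strongest loss were negative. The called interval 9.3 kb from the gene had 19.2, 20.6 and 21.0 CPM in wild type libraries and 8.86, 8.54 and 13.0 CPM in N440K libraries, and a second, 12.6 kb from the gene and named after its values were seen, lost 3.44-fold. No overlap between genotypes occurred in these 4 called intervals. With a library left out, the call held in 4 of 6 fits for the first Psmc1 interval and in 2 for each of the others.

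Beyond the Igh window, in the bin with the highest called share, losses and a gain lay side by side. The interval 5.7 kb from Wdr60, a ciliary dynein gene, had 27.3, 33.3 and 25.8 CPM in wild type libraries and 18.8, 12.8 and 14.6 CPM in N440K libraries. In Ptprn2, which encodes a phosphatase-like protein of secretory vesicles, libraries had 21.7, 16.1 and 25.3 CPM against 9.97, 7.32 and 12.5 CPM, and 61.9 kb from the same gene 10.5, 11.1 and 11.2 CPM against 2.77, 3.05 and 4.68 CPM, a 3.07-fold loss. All 6 members of Ptprn2 were negative, with a median of -0.94. Between these losses, the gain in Esyt2 had 14.3, 14.4 and 9.87 CPM in wild type libraries and 28.2, 25.6 and 22.4 CPM in N440K libraries, and the members of that gene next in p (0.39 ± 0.24 and 0.63 ± 0.38) were not called. With a library left out, the call held in 3 of 6 fits for the first Wdr60 interval and 2 for the second, 2 and 5 for the Ptprn2 intervals and 4 for Esyt2.

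Of the 54 calls, 26 (48.1%) lay within 100 kb of another call, in 10 places of which 9 went in 1 direction. On the other autosomes 230 of 632 calls (36.4%) did, in 95 places. Counted as places, there were 15.8 per 1000 tested members and 8.38 per 1000 elsewhere. Neighbouring members had like log2 fold changes at short range. Across pairs of neighbours, which share their libraries, the log2 fold changes had a Pearson r of 0.41 under 1 kb (884 pairs; 0.37 elsewhere), 0.31 from 1 to 10 kb (586 pairs; 0.21), 0.10 from 10 to 100 kb (777 pairs; 0.16) and 0.09 from 100 to 1000 kb (134 pairs; 0.13). Of the 2402 members, 376 had another within 300 bp, so that single DNA fragments can add reads to both.

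Within 5 Mb of the windows the called share was below the 1.14% of all tested intervals on 3 sides. It was above that, and above the 2.25% of members, on the side of higher coordinates of the Igh window. At the Bcl11b window the low share rested on few calls and on the distance. On its lower and higher sides the shares were 4.55% and 1.54% within 1 Mb, and 1.92% and 1.32% within 2 Mb. Within 10 Mb they were 3.12% and 2.01%, the latter reaching past the Igh window. Below the Igh window the share was 0% within 1 Mb and 0.787% within 10 Mb. Within 5 Mb on the side of lower coordinates of the Bcl11b window, 1 of 132 members was called, a loss (0.758%), and on the other side 2 of 278, both gains (0.719%). Closer in, within 1 Mb, 17 of 22 members on the lower side were negative, with a median of -0.26, and the 65 on the higher side had a median of -0.06. The called loss there, at 106926071-106926271, lay 73.8 kb from the edge and had 30.4, 23.5 and 31.3 CPM in wild type libraries and 17.7, 14.6 and 15.1 CPM in N440K libraries, a call that held in 1 of 6 fits with a library left out. The members nearest the edges had log2 fold changes of -0.23 ± 0.35 on the lower and -1.08 ± 0.36 on the higher side, and the nearest intervals inside the window -0.86 ± 0.32 and 0.16 ± 0.39, none of them called. Within 5 Mb below the Igh window 2 of 296 members were called (0.676%). Most of that stretch also lies within 5 Mb above the Bcl11b window, and its 2 calls, in Wdr25 and at Dync1h1, are the same. Above the Igh window 4 of 23 were called within 1 Mb (17.4%), with a median of -0.26, and 5 of 50 within 5 Mb (10%). Its nearest members had 0.13 ± 0.20 below and -0.47 ± 0.26 above, and its nearest intervals inside 0.29 ± 0.26 and -0.40 ± 0.35.

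Among gene groups of the chromosome, lymphocyte regulators had 202 members near all 16 genes listed, of which 1 gained and 5 lost signal (2.97%, beside 1.14% of all tested intervals and 2.25% of members), with a median log2 fold change of -0.01. Of the 5 losses 4 lay in 1 gene, Foxn3. The fifth loss was in Mycn, and the gain was 24.1 kb from Ahr, the aryl hydrocarbon receptor gene, where the wild type libraries had 3.72, 4.12 and 4.29 CPM, whereas the N440K libraries had 11.1, 8.54 and 12 CPM; this call held in 1 of 6 fits with a library left out. Near Id2 the member with the smallest p, 94 kb away, had 16.1, 15.2 and 24.5 CPM in wild type libraries and 31.0, 29.3 and 26.0 CPM in N440K libraries, and was not called (0.61 ± 0.20). The member 45.2 kb from Zfp36l1 had -1.18 ± 0.35 and that 27.1 kb from Jdp2, an AP-1 repressor gene, -0.52 ± 0.19, and these were not called either.

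Signalling and chromatin genes had called shares near the 1.14% of all tested intervals and below the 2.25% of members. Signalling genes had 2 gains and 1 loss in 291 members (1.03%), with a median of 0.01, and these were the Adam17 intervals and the loss near Sipa1l1. In that group the members with the smallest p near Rin3 (-0.87 ± 0.25), Ccdc88c (-0.92 ± 0.29) and Map3k9 (-1.47 ± 0.41) were not called. Chromatin genes had 1 loss in 93 members (1.08%), near Baz1a, with a median of -0.06, and the coactivator gene Ncoa1 (-0.99 ± 0.34), the BAF subunit gene Dpf3 (-1.53 ± 0.48) and the methyltransferase gene Setd3 (-1.08 ± 0.36) had no call. Notch pathway genes had 18 members, of which the 2 in Adam17 were called (11.1%), with a median of 0.02, and Numb, a Notch antagonist gene, had no call (0.23 ± 0.18). In the Dlk1-Dio3 domain 5 members lay near Dlk1 and none near the other 5 genes listed, and none of the 5 was called; the lowest p was at an interval with 12.4, 13.6 and 12.9 CPM in wild type libraries and 6.64, 7.93 and 9.37 CPM in N440K libraries. The list of neuronal and very long genes had no call in 29 members, which lay near 7 of its 14 genes. DESeq2 and voom made none there either. Of the 29, 5 had an unadjusted p under 0.05 in edgeR, beside 12.7% of all tested intervals and 13.5% of members. That list does not hold Ptprn2, with 2 losses called, or Hpcal1, with 1 gain. The lowest p values there were 1.3 kb from Etv1, an Ets factor gene (-1.24 ± 0.35), and in Akap6 (-0.92 ± 0.42) and the synaptic gene Nrxn3 (-0.91 ± 0.41).

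The list of genes of other cell types had few members. Of its 8 genes, of B cells, dendritic cells, liver and endocrine organs, 5 (Tcl1, Serpina1a, Serpina3g, Apob and Chga) had no member, and 4 members lay near the other 3. Of the 4, the interval in Tshr, the thyrotropin receptor gene, was called, with 11.2, 12.8 and 20.2 CPM in wild type libraries and 23.3, 24.4 and 33.8 CPM in N440K libraries, and the call held in 3 of 6 fits with a library left out. The liver gene Slc10a1, with its called loss, is not on that list. Pomc, the precursor gene of pituitary hormones, had 42.1, 43.2 and 38.2 CPM against 50.4, 43.9 and 33.8 CPM, and Pld4 of dendritic and B cells -0.61 ± 0.41. Binding at a gene does not measure the share of a cell type, and the part of cell makeup in the calls was not tested.

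Of the 54 calls, 9 held in all 6 fits that left out a library. These were the start site of Adam17, the interval near Rnf144a, 1 in Trappc12, the one 168.5 kb from Frmd6, the one in Syne2, 2 in Smoc1, 1 in Foxn3 and the one near Ttc7b. DESeq2's 6 calls were among these 9, without the intervals near Rnf144a and in Foxn3 and with 1 of those in Smoc1. In 2 of the 54 calls, 39 kb from Odc1 and in Kidins220, both named after their values were seen, the libraries of the genotypes overlapped: near Odc1, a polyamine synthesis gene, signal was 11.8, 30.9 and 33.5 CPM in wild type libraries, compared with 13.8, 14.0 and 14.1 CPM in N440K libraries.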

How the data were processed

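Per the labels' protocols, thymocytes were cross-linked with formaldehyde, chromatin was sonicated and precipitated with a rabbit antibody against Bcl11b, and libraries were sequenced on a HiSeq instrument. The submitters' processing notes list the build mm10 and the tools Bowtie2 2.3.5, edgeR 3.38.2, fastp 0.20.0, SAMtools 1.9, bedtools and MACS2, without saying what each did. Whether replicates were pooled for peak calling is not stated there. The authors deposited read counts in 93708 intervals of 201 bp, which are whole and unscaled. The deposited tables also hold CPM values for 63098 of these intervals, namely those that edgeR's filterByExpr keeps; reads came back whole from 100% of the CPM values (tolerance 0.01).

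Counts of the 6 ChIP libraries were fitted with edgeR 4.0.16 (filterByExpr by genotype, TMM with factors of 0.9896 to 1.0120, glmQLFit and glmQLFTest, genotype as the only term, two-sided, Benjamini-Hochberg over all tested intervals, threshold 0.05). The SE of a log2 fold change is its size over the square root of that test's F. The procedure was tested on simulated data. Gene positions and promoters came from RefSeq on GRCm38.p6, with interval starts counted from 1; an interval belonged to the gene body holding it, otherwise to the nearest within 100 kb. The members and the 7 gene lists (84 genes, 83 matched) were chosen with earlier results of these data known. Intervals were named by rule: among calls at or above the median CPM and without overlap, the 10 with the largest fold in each direction, at most 1 per 100 kb; the 5 strongest in wild type; the smallest p in the bins with the highest called share and the widest spread; the smallest p per listed gene; and those nearest the window edges. The alternatives were DESeq2 1.42.0, limma 3.58.1 voom, other scalings, filters, thresholds, bins and windows, a replicate block and each library left out; counts recovered from CPM and places of 100 kb were chosen after seeing the data. Other software was R 4.3.3 and Python 3.11.15 (matplotlib 3.10.9, numpy 2.4.6, pandas 2.3.3, scipy 1.17.1). Chi-square per degree of freedom between libraries was 1.24 to 1.42 within genotypes and 1.55 to 1.78 across them, so every pair of libraries differed by more than sampling noise.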

Additional observations from a re-analysis of the deposited data

How the results depend on the processing

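The count of 54 called members became 6 with DESeq2, 23 with limma voom, 13 at a threshold of 0.01 and 30 when only intervals reaching the median CPM were tested, and lay between 15 and 42 with each library left out. It stayed within 1.5 times under total counts (53), loess offsets (49), no filter (61), TMM from the other autosomes (54), without X, Y and unplaced sequences (58), other windows (52 and 49), counts recovered from CPM (54) and places of 100 kb (38). Among the named intervals, 27 were called, against 5 with DESeq2, 14 with voom and 9 to 19 with a library left out. The highest called share of a bin, 10%, became 1.96% with DESeq2, in another bin (20 to 25 Mb), and lay between 2.38% and 10.5% with a library left out. The spread over members, 0.34, became 0.452 without the filter and 0.261 at or above the median CPM, and lay between 0.372 and 0.387 with a library left out. The direction of a named interval turned only at Pomc, which was not called (0.05), to -0.0075 without wild type 3 and -0.084 without N440K 1, in a range up to 0.208 with a library left out. The median log2 fold change and the wild type level stayed within the spread between libraries.

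With the replicate number as a replicate block, 51 members were called, 48 of them among the 54, and 26 named intervals. Deviations of libraries with the same number correlated at -0.004, 0.028 and 0.058, and those of other pairs at -0.047 to 0.017, so the numbers were not taken to pair the libraries. The spread of log2 fold changes over members was 0.50 in the weakest and 0.21 in the strongest quartile of mean CPM. An interval that was not called is not shown to be equal between genotypes.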
